A study of Arabidopsis thaliana with 6 samples.

Results

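Signals of 6 WRKY transcription factor genes, WRKY6, WRKY22, WRKY53, WRKY40, WRKY48 and WRKY54, were followed on all 6 Affymetrix ATH1 arrays of GRF9-IOE Arabidopsis plants, out of 22746 probe sets other than controls. GRF9-IOE plants carry GROWTH-REGULATING FACTOR 9 behind an estradiol (EST)-inducible promoter, and the transgene was present in induced and mock plants alike. Seedlings, 2 weeks old and raised on MS plates in long days, received 10 µM EST or 0.1% ethanol (mock) for 3 h or 4 h, and detached mature leaves of soil-grown plants, 40 days old and kept in equal days and nights, received the same for 6 h. The labels gave 1 array to each of these 6 conditions, so no condition has a replicate, and neither the genotype without the transgene nor its response to EST was measured here. The study's methods give another leaf age and another ethanol share than the labels do.

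The members were chosen with results from these arrays known. WRKY6 (AT1G62300), WRKY22 (AT4G01250) and WRKY53 (AT4G23810) were named by the array annotation, as probe sets 264746_at, 255568_at and 254231_at. WRKY40 (AT1G80840, 261892_at), WRKY48 (AT5G49520, 248611_at) and WRKY54 (AT2G40750, 257382_at) were not listed there and were given the probe set whose 3 differences between EST and mock equal the study's own table within 2e-05. Those differences therefore identified 3 of the members, and all EST differences below are descriptions without a test. The signals themselves were not used to identify them, although the high leaf signal of WRKY54 was known when the genes were chosen.

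WRKY proteins are plant transcription factors named after a short conserved amino acid motif in their DNA-binding domain, which is followed by a zinc finger. They bind the W-box, a promoter element with the core TTGAC, and many WRKY genes carry W-boxes in their own promoters, so that the family regulates itself. Several members link defence against pathogens, salicylic acid signalling and the ageing of leaves. The study designed qRT-PCR primers for the 3 members that the annotation does not list. They are shown, in lower case from 5′ to 3′, as the study's own sequences for these genes, and were not used to obtain any value here.
WRKY40 forward: agcttctgacactaccctcgttg
WRKY40 reverse: ttgacagaacagcttggagcac
WRKY48 forward: ggtttgcgtttctgacgaagagc
WRKY48 reverse: tggtgcaacggtaatagcttctgg
WRKY54 forward: cactgctcagaaccatgtcaatgc
WRKY54 reverse: tgctgtcacactgctggtgttg

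The values are log2 signals normalized with GCRMA, on which a difference of 1 is 2-fold. All arrays had a minimum of 2.15, medians ran from 5.15 to 5.33, and 28.4% to 30% of probe sets lay within 0.05 of the minimum. Probe sets at the minimum on the arrays compared show no difference and count as not higher. They lower the shares of all probe sets given below. Correlations across probe sets were 0.995 to 0.997 among seedling arrays, 0.993 between the leaf arrays and 0.910 to 0.926 between tissues. The root β-glucosidase gene PYK10 read 12.06 to 12.27 in seedlings and 2.17 on both leaf arrays. The root hair genes EXPA7 and EXPA18 stood between 2.15 and 2.39 on all 6 arrays, so these root markers were near the minimum in seedlings too, and none of 5 green leaf markers had a named probe set. As a measure of differences without EST, seedlings given mock for 4 h and for 3 h differed by less than 0.62 on the log2 scale for 95% of the 13124 probe sets with a mean signal of at least 4.

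All 6 WRKY genes had higher signals after EST than after mock treatment in seedlings at both 3 h and 4 h. At 3 h, 5 of the 6 were at least 2-fold higher, against 1.27% of all probe sets, and at 4 h 3 of the 6 were, against 0.717%. WRKY40, WRKY48 and WRKY54 were at least 2-fold higher at both times, against 0.356% of all probe sets. These 3 had been identified by that contrast, and all 6 had been chosen with it known, so these counts are not independent of the choice. In detached leaves at 6 h none of the 6 was at least 2-fold higher or lower, against 1.24% and 1.22% of all probe sets. The differences at 3 h had a median of 1.34 over the 6 genes, those at 4 h one of 0.85 and those in leaves one of 0.04, and the median of all probe sets was 0.00 at each time. The 3 h difference exceeded the 4 h difference in 5 of the 6 genes, WRKY54 being the exception, against 36.4% of all probe sets. Ties at the minimum count as not exceeding in that share. For WRKY40 and WRKY53 the order of the 2 differences rested on the mock arrays, and it turned when these were exchanged or averaged. It then held in 3 of the 6 genes, WRKY6, WRKY22 and WRKY48. With exchanged mock arrays 4 genes were at least 2-fold higher at 3 h and 4 at 4 h, and with averaged ones 4 and 3.

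**Figure D1:**
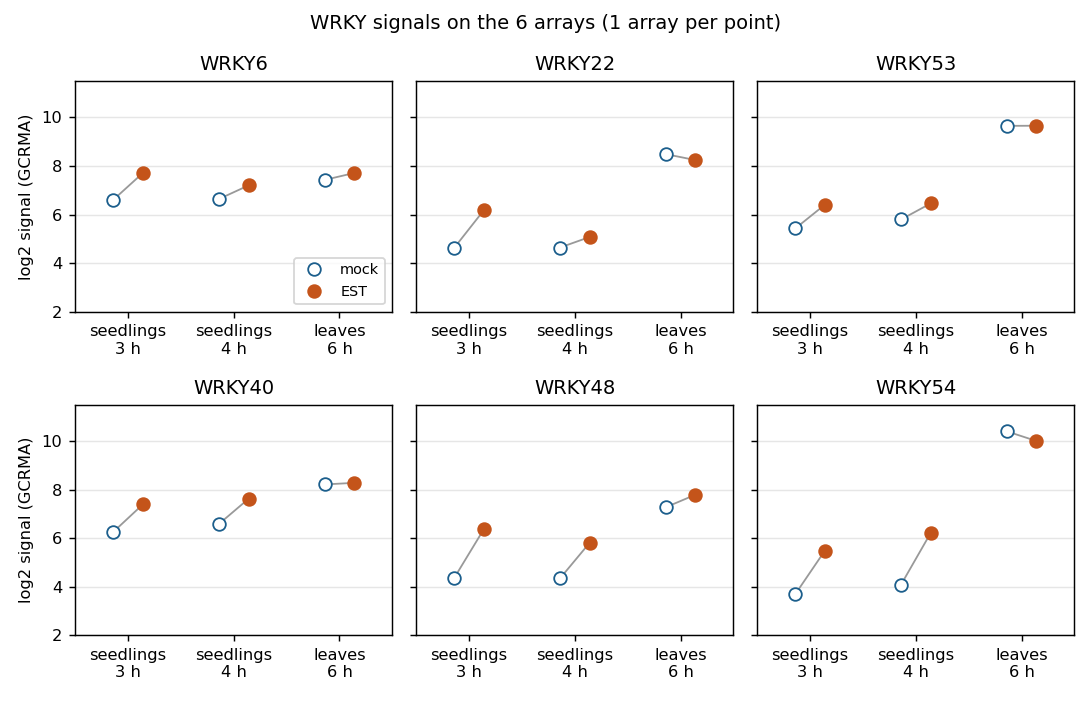
Log2 signal (GCRMA, vertical axis) of 6 WRKY genes on each of 6 arrays, with open circles for mock and filled circles for EST and 1 array per point. Grey lines join the arrays of one time point; the seedling lines slope upward in all panels, and the leaf arrays lie above every seedling array in all panels but that of WRKY6.

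WRKY54 is a regulator of defence and leaf ageing that acts with its relative WRKY70 to hold back senescence and salicylic acid synthesis. Mock and EST seedlings of 3 h gave signals of 3.70 and 5.49, those of 4 h gave 4.09 and 6.22, and mock and EST leaves gave 10.40 and 10.01. EST seedlings were thus 3.47-fold above mock at 3 h and 4.37-fold at 4 h, and both lay far under either leaf array. In leaves the difference after EST was −0.40. The lowest signal of WRKY54 stood 1.55 above the array minimum, the least among the 6 genes, so its seedling folds start from weak signals. The mock seedling arrays differed by 0.39, and with the mock arrays exchanged between 3 h and 4 h the seedling differences were 1.40 and 2.52.

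WRKY48, a stress- and pathogen-induced gene known to limit basal resistance to bacteria, gave signals of 4.37 and 6.38 in mock and EST seedlings of 3 h, and of 4.35 and 5.81 in those of 4 h. The mock seedling signals differed by only −0.02, so the differences of 2.01 and 1.46 after EST hardly depended on which mock array was used. Mock leaves gave 7.28 and EST leaves 7.79, a difference of 0.52, the largest leaf difference of the 6 genes in either direction but within the 0.62 seen without EST. In seedlings the EST signal was 4.03-fold that of mock at 3 h and 2.76-fold at 4 h.

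WRKY40, which with WRKY18 and WRKY60 represses parts of the defence and abscisic acid responses, gave 6.26 and 7.39 in mock and EST seedlings of 3 h and 6.59 and 7.63 in those of 4 h. Its leaf signals were 8.22 in mock and 8.28 after EST. The seedling differences of 1.14 and 1.04 lay just inside the 2-fold limit. The mock arrays differed by 0.33, and once they were exchanged the differences were 0.81 and 1.37, so that WRKY40 no longer passed 2-fold at 3 h and 2 of the 6 genes were past it at both times.

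WRKY53, an early regulator of leaf senescence, lay just outside that limit at 3 h. Mock and EST seedlings of 3 h gave 5.43 and 6.41, a difference of 0.98, and those of 4 h gave 5.80 and 6.46, a difference of 0.66. The EST arrays of 3 h and 4 h differed by 0.05 and the mock arrays by 0.37, so the smaller difference at 4 h went with a higher mock signal. In leaves the signals were 9.65 in mock and 9.66 after EST.

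WRKY22 acts downstream of the MAP kinase cascade that follows flagellin perception, and also in dark-induced leaf senescence. Its signals were 4.63 and 6.18 in mock and EST seedlings of 3 h, against 4.64 and 5.08 in those of 4 h. The mock arrays differed by 0.01, whereas the EST array of 4 h differed from that of 3 h by −1.10, so that EST minus mock was 1.55 at 3 h and 0.43 at 4 h. Mock leaves gave 8.49 and EST leaves 8.25. The 4 h difference of WRKY22 lay within the range seen without EST.

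WRKY6, a regulator of senescence, defence and phosphate responses, had the narrowest range of signals. Mock and EST arrays stood at 6.60 and 7.71 in seedlings of 3 h, at 6.64 and 7.20 in those of 4 h, and at 7.43 and 7.71 in leaves. Its seedling difference of 1.11 at 3 h exceeded the range without EST, and that of 0.56 at 4 h did not. Over the 6 genes, 6 differences at 3 h, 4 at 4 h and 0 in leaves lay outside that range, against 7.56%, 4.45% and 11.1% of the 13124 probe sets that define it. As all 6 genes were chosen with this contrast known and 3 were identified by it, the seedling counts are descriptions only.

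**Figure D2:**
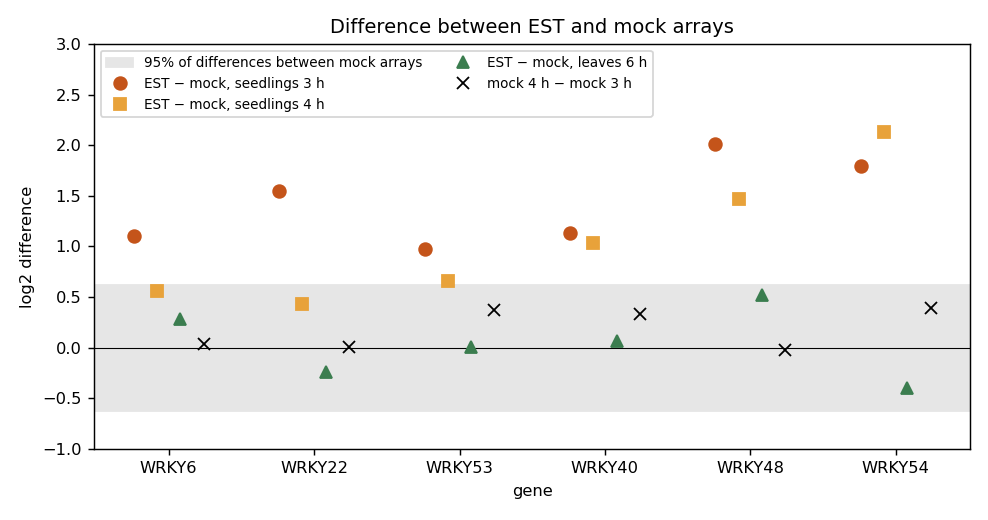
Log2 difference (vertical axis) between EST and mock arrays for each WRKY gene in seedlings (3 h, 4 h) and leaves (6 h), with crosses for the 4 h mock minus the 3 h mock array. The grey band spans ±0.62, which held 95% of the differences between mock seedling arrays; all 6 seedling differences at 3 h lie above it and all 6 leaf differences within it.

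Mock leaves already had more WRKY signal than both mock seedling arrays for all 6 genes, against 31.7% of all probe sets, and more than both EST seedling arrays for 5 of them, against 30.9%. Of the 81 probe sets that EST seedlings had at 2-fold or more above mock at 3 h and at 4 h, chosen on those same seedling arrays, 53.1% also had more signal in mock leaves than in EST seedlings, so the WRKY genes were not alone in this. Mock leaves were at least 2-fold above both mock seedling arrays for 5 of the 6 genes. That held for 66.7% of those 81 probe sets and for 13.3% of all probe sets, so the 81 are the nearer comparison. The mock leaf array exceeded the mean of the mock seedling arrays by 6.51 on the log2 scale for WRKY54 (91.1-fold), 4.04 for WRKY53 (16.5-fold) and 3.85 for WRKY22 (14.4-fold). The gap was 2.92 for WRKY48 (7.57-fold), 1.79 for WRKY40 (3.47-fold) and 0.81 for WRKY6 (1.75-fold). In each gene the mock seedling arrays were the lowest of the 6, and they lay within 0.39 of each other, as the leaf arrays lay within 0.52, so neither pair was ordered beyond the 0.62 seen without EST. Leaves and seedlings differed in organ, age, growth medium, day length, detachment and treatment time, and these cannot be told apart here. Nor can more cells of a type be told apart from more RNA per cell.

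EST seedlings lay nearer to mock leaves than mock seedlings did, by amounts that varied among the genes. This largely follows from the EST seedling and mock leaf signals both being above mock seedlings in every gene, so it is no separate result. For WRKY54 the mock leaf signal was still 4.91 and 4.19 above EST seedlings at 3 h and 4 h, and for WRKY53 it was 3.25 and 3.20 above. For WRKY22 the distances were 2.31 and 3.41, and for WRKY48 they were 0.90 and 1.47. WRKY40 came within 0.82 and 0.59 of the mock leaf signal. WRKY6 was the one gene whose EST seedling signal passed it, by 0.28 at 3 h, while at 4 h it remained 0.23 below.

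**Figure D3:**
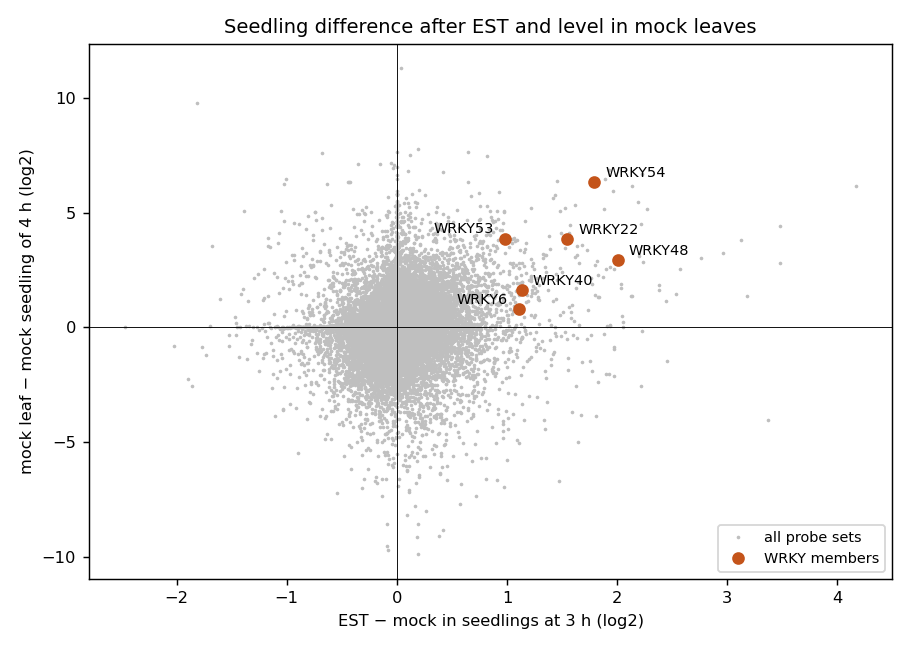
EST minus mock in seedlings at 3 h (horizontal axis, log2) against the mock leaf minus the 4 h mock seedling array (vertical axis, log2). The axes share no array, but the 4 h mock array entered the EST differences known when the 6 genes were chosen. Those differences also identified WRKY40, WRKY48 and WRKY54. The vertical values are therefore not independent of that choice. Grey points are all 22746 probe sets; the 6 WRKY genes lie right of and above 0, from WRKY6 at 1.11 and 0.79 to WRKY54 at 1.79 and 6.31.

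The level in leaves against seedlings was tested with limma over all 6 arrays, 4 of seedlings and 2 of leaves, with a term for EST. WRKY53 was higher in leaves by 3.63 ± 0.25 (SE, adjusted p = 0.00337), WRKY22 by 3.24 ± 0.50 (adjusted p = 0.0179) and WRKY48 by 2.31 ± 0.38 (adjusted p = 0.0212). WRKY40 had a difference of 1.28 ± 0.31 (adjusted p = 0.0520) and WRKY6 of 0.53 ± 0.23 (adjusted p = 0.185), with 95% intervals of 0.37 to 2.20 and −0.14 to 1.21. The estimate for WRKY54 was 5.33 ± 0.70 (SE), a description with no test, since its leaf signal was known when it was chosen. Thus 3 of the other 5 genes passed an adjusted p of 0.05 as higher in leaves, against 19.0% of all probe sets higher and 18.2% lower. A refit used only the 13912 probe sets reaching a log2 signal of 4 on at least 1 array. It called 4920 of them higher in leaves, and 4 of these 5 genes passed. Among the 81 probe sets 2-fold higher after EST at both seedling times, 39.5% were called higher in leaves. Their choice shares its seedling arrays with this fit, as do the EST differences known when the WRKY genes were chosen. The 39.5% is therefore the nearer comparison, and the p-values of the WRKY genes are not independent of that choice. Both leaf arrays lay above all 4 seedling arrays for 5 of the 6 genes, and for 4 of the 5 other than WRKY54, against 25.5% of all probe sets. For WRKY6 the groups overlapped. The median difference was 2.77 for the 6 genes, WRKY54 included, and 0.00 for all probe sets.

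These tests treat arrays of different times and treatments as samples of a tissue, so their spread holds the seedling response to EST as well as noise, and single arrays carried much weight. WRKY53 passed with each array left out in turn (adjusted p = 0.0107 to 0.0254) but not on the 3 mock arrays alone (4.04, adjusted p = 0.0819), where WRKY22 (3.85, adjusted p = 0.00959) and WRKY48 (2.92, adjusted p = 0.0152) passed. With single arrays left out, WRKY22 passed only without the EST seedling array of 3 h; without the mock seedling array of 3 h or 4 h or the EST seedling array of 4 h its adjusted p was 0.0732, 0.0754 and 0.0680, without the mock leaf array 0.104 and without the EST leaf array 0.0528. WRKY48 did not pass without either mock seedling array (adjusted p = 0.0808 and 0.0820 for 3 h and 4 h), the EST seedling array of 4 h (0.0838) or the mock leaf array (0.0716). WRKY40 passed without the EST leaf array (1.79, adjusted p = 0.0365), and WRKY6 without the EST seedling array of 3 h (0.68, adjusted p = 0.0433). WRKY40 and WRKY6 differed by 0.77 and 0.26 without the mock leaf array, and WRKY6 by 0.81 without the EST leaf array. Without either mock seedling array, the EST seedling array of 4 h or the mock leaf array, 1 of these 5 genes passed, WRKY53.

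**Figure D4:**
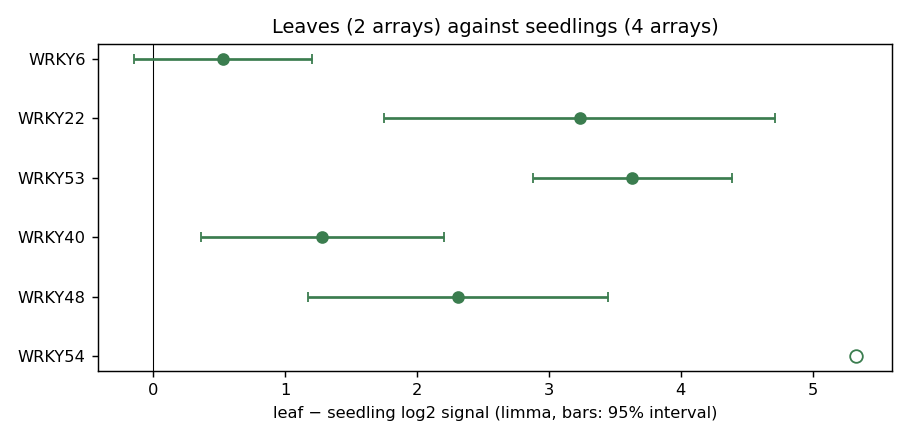
Difference in log2 signal between leaves (2 arrays) and seedlings (4 arrays) for each WRKY gene, from limma with a term for EST; bars are 95% intervals, and the open point without one is WRKY54, which was not tested. The interval of WRKY6 spans 0, and the estimates run from 0.53 for WRKY6 to 5.33 for WRKY54.

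Of 66 other WRKY genes in a list of the family, 4 had a probe set named by the annotation, and none of these was 2-fold higher or lower after EST at any time. WRKY47 gave 5.96 and 6.18 in mock and EST seedlings of 3 h, 5.89 and 6.10 in those of 4 h, and 8.13 and 7.97 in leaves. It was higher in leaves by 2.02 ± 0.11 (limma, adjusted p = 0.00212), as was WRKY1 by 0.43 ± 0.05 (adjusted p = 0.0114), while WRKY20 differed by 0.33 ± 0.09 (adjusted p = 0.0780). WRKY42 had the minimum value of 2.15 on every array. WRKY18, WRKY60 and WRKY70, partners of the members above, had no named probe set.

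Genes known to act with these factors in defence were few on the annotated part of the array. FRK1, a receptor-like kinase gene that WRKY6 activates in senescing leaves and that flagellin induces, gave 5.65 and 7.17 in mock and EST seedlings of 3 h, 5.66 and 7.01 in those of 4 h, and 10.85 and 10.34 in leaves. Like WRKY54 and WRKY22, FRK1 had higher signals after EST in seedlings and a slightly lower one in leaves, and its leaf signals lay above all its seedling signals. NHL10, a flagellin-responsive gene, differed by 0.30, 1.62 and 1.53 at 3, 4 and 6 h, and the immune kinase gene BIK1 by 0.51, 0.30 and −0.05. These were the 3 measured genes of 17 in a list for pattern-triggered signalling, and all 3 were higher in leaves by limma, against 19.0% of all probe sets, FRK1 by 4.22 (adjusted p = 0.0114), NHL10 by 3.03 (adjusted p = 0.0154) and BIK1 by 0.76 (adjusted p = 0.0239). FRK1, NHL10 and 2 genes of the next lists, PBS3 and ORE1, had been identified through the study's table of genes responding to EST, so their EST differences are not independent of these arrays, and the 39.5% given above for probe sets higher after EST is the nearer comparison for their leaf calls.

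Of 17 salicylic acid defence genes 2 were measured, PBS3 through its response to EST, and both were higher in leaves, against 19.0% of all probe sets. PBS3, an enzyme of salicylic acid synthesis, gave 4.09 and 5.71 in mock and EST seedlings of 3 h, 4.09 and 4.68 in those of 4 h, and 9.42 and 10.56 in leaves, which placed it 5.35 higher in leaves (limma, adjusted p = 0.00286). Its difference after EST was 1.62 at 3 h and 0.59 at 4 h, where WRKY22 had 1.55 and 0.43, and in leaves it was 1.14, where no WRKY gene of the 6 reached 2-fold. SAG101, a lipase-like partner in EDS1 immune signalling, differed by 0.76, 0.60 and 0.12 after EST and was 1.81 higher in leaves (adjusted p = 0.00773).

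Of 12 leaf ageing genes 2 were measured, and they lay on opposite sides. The NAC factor gene ORE1, a promoter of leaf senescence, differed after EST by 1.57, 1.24 and −0.47 and was 4.02 higher in leaves (limma, adjusted p = 0.0201). The sugar transporter gene SAG29 differed by 0.99, −0.16 and −0.68 and fell by 4.16 from seedlings to leaves (adjusted p = 0.00858), with leaf signals of 2.83 and 2.15 at or near the minimum. The defensin gene PDF1.2, the 1 measured gene of 12 in a jasmonate list, differed after EST by 0.81, 0.89 and 1.06 and fell by 6.52 from seedlings to leaves (limma, adjusted p = 0.000190). Over the 3 time points taken as replicates, limma with the time point as a block called 0 probe sets as changed by EST. None of these list genes therefore passed. Of the 22746 probe sets tested, 751 higher and 413 lower ones had an unadjusted p below 0.05, near the 0.05 share expected without any change.

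The genes whose profiles over the 6 arrays lay closest to each WRKY gene were sought by the root mean square distance of centred log2 profiles. The 4547 candidates were probe sets that span at least 1 log2 unit and that the annotation pairs with exactly 1 gene, together with the other members. Other probe sets could not be found as nearest. The nearest to WRKY54 were AT1G51890 (0.35) and the VQ motif gene AT2G22880 (0.39), whose family includes partners of WRKY proteins. AT2G22880 gave 3.53 and 5.49 in mock and EST seedlings of 3 h, 3.63 and 5.82 in those of 4 h, and 9.58 and 8.86 in leaves. The nearest to WRKY48 were AT1G19020 (0.21) and UGT76B1 (0.26), a glycosyltransferase acting on salicylic acid, with signals of 5.71 and 7.32, 5.96 and 7.34, and 9.04 and 9.35 in the same order.

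For WRKY22 the nearest genes were AT5G61560 (0.20) and AT1G51620 (0.23), and for WRKY53 they were AT5G52760 (0.15) and AT2G27830 (0.15). For WRKY40 they were AT2G27080 (0.18) and AT4G27280 (0.19), the latter a calcium-binding EF-hand protein gene, and for WRKY6 they were AT5G46150 (0.20) and AT4G12490 (0.20). No WRKY gene was among the 2 nearest of another. The closest pair within the set was WRKY22 and WRKY53 at 0.41, followed by WRKY6 and WRKY40 at 0.44, whereas WRKY6 and WRKY54 stood farthest apart at 2.35. These distances share the same 6 arrays and mostly follow the gap between leaves and seedlings.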

How the data were processed

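Each deposited value is the log2 signal of a probe set, which the authors normalized with GCRMA (version not given in the sources used here) and which were used as deposited. Of 22810 probe sets, 64 controls were left out. The annotation paired 13513 probe sets with exactly 1 gene, 503 with several and did not list 8730; 13436 matched a TAIR10.1 locus. Genes it does not list were named where the 3 differences of the study's table equalled those of exactly 1 probe set. That table's values served for nothing else. The members and gene lists were chosen with earlier results of these data known. Leaves were compared with seedlings in limma 3.58.1 (R 4.3.3) over 22746 probe sets with a term for EST, which leaves 3 residual degrees of freedom, and EST with mock over 3 time points with the time point as a block, because each EST array has a mock array of its own tissue and time. P-values are two-sided and adjusted by the Benjamini-Hochberg method. With 1 array per condition, and no statement that arrays came from separate cultures, p-values measure the spread between these arrays only. Named genes are the members, the 2 nearest profiles of each, and the measured list genes. Alternatives were other scalings, models, filters, fold limits, mock arrays and arrays left out. Array number limits the precision. Promoter and protein sequences were not analysed here. Plots were made in Python 3.11.15 with matplotlib 3.10.9.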

Additional observations from a re-analysis of the deposited data

Results flagged for a closer look

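For 2 of the 6 WRKY genes, both seedling differences after EST lay above 0 and the leaf difference below it. The leaf difference was −0.24 for WRKY22, against 1.55 and 0.43 in seedlings, and −0.40 for WRKY54, against 1.79 and 2.13. Each leaf value comes from 1 pair of arrays and lay within the range seen between mock seedling arrays, and whether the responses of the tissues differ was not tested.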

How the results depend on the processing

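No replicate numbers link the arrays, and the pairing used is that of EST and mock at one time point; with the time point as a block or without it (no replicate block), limma called 0 probe sets as changed by EST. The 18 differences of the WRKY genes after EST moved by less than 0.29, the SD between mock seedling arrays, under quantile normalization and median centring, and with averaged mock arrays the 12 seedling differences did too. With exchanged mock arrays 6 of 12 moved by more, those of WRKY53 (0.61 and 1.03), WRKY40 (0.81 and 1.37) and WRKY54 (1.40 and 2.52). The count of 3 WRKY genes at least 2-fold higher at both seedling times was 4 at 1.5-fold, 1 at 3-fold, and 2 with exchanged or averaged mock arrays or median centring. The count of 3 of 5 genes higher in leaves, WRKY54 aside, was 1 to 4 with a seedling array left out and 2 without the EST term. It was 4 with a filter at a log2 signal of 4, quantile normalization or a trended prior. With median centring, which moves the median of all probe sets by 0.10 toward leaves, it was 5. The difference stayed above 0 for all 6 genes in each of these settings and in the fits with 1 leaf array. Probe sets higher and lower in leaves numbered 4318 and 4151, against 1778 and 1400 on mock arrays only, 2261 and 2102 with 1 probe set per gene, where fewer were tested, and 2939 to 3534 and 2814 to 3304 with an array left out. At least 2-fold higher after EST were 288, 163 and 282 probe sets at 3, 4 and 6 h, and lower 97, 43 and 278. At 1.5-fold these were 928, 595 and 1086 higher and 488, 256 and 1029 lower, and at 3-fold 83, 39 and 47 higher and 10, 4 and 63 lower. With exchanged mock arrays 163 and 340 were higher at 3 and 4 h, and 89 were lower at 4 h. The cause of these changes was not tested.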
